A study of Mus musculus with 4 samples.

Results

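The untreated Pol II library of primary mouse osteoblasts has 758 of its 1694 listed peaks on chromosomes 6, 10, 17 and 19. All 758 were kept, and each was taken by its chromosome alone. These chromosomes were chosen because listed peaks were dense on them, so their density is a description and was not tested. Of the other untreated peaks 849 lay on the other 15 autosomes, 9 on X and Y and 78 on unplaced sequences.

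RNA polymerase II (Pol II) transcribes protein-coding genes and most long non-coding RNA genes. ChIP-seq recovers crosslinked DNA with an antibody, and a peak is a stretch where the recovered fragments pile up above the local background. In a Pol II experiment such stretches are known to gather at gene starts and, in strongly transcribed genes, along the gene body. A list called at a loose limit also holds stretches that pass by sampling alone.

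The study has 4 samples: a Pol II library and its input from untreated cultures, and the same pair from cultures given OSS_128167. The inputs were not analysed here. Osteoblasts were grown from bone-derived stromal cells of young mice, kept in osteogenic medium for 3 days, and OSS_128167 is an inhibitor of the chromatin deacylase SIRT6. Strain, dose and exposure time are not given in the labels. The untreated group rests on titles that say WT, while the treatment field names OSS_128167 for every sample. Each condition has 1 library, so nothing below was tested between conditions, and a difference between the lists compares 2 libraries. The lists hold no read totals, and the depth of the libraries is unknown. The cell type label was set beside marker genes, counting a peak within 1000 bp of the gene in either list. Of 9 osteoblast markers 2 had an untreated peak (Col1a2 and Runx2) and 5 an OSS_128167 peak, while Alpl, Bglap, Spp1 and Ibsp had none. Of 6 stromal markers 0 and 5 did, of 6 macrophage markers 0 and 3, of 5 osteoclast markers 0 and 1, and of 5 adipocyte markers 1 and 0. Of 4 endothelial markers 0 and 3 did, of 4 chondrocyte markers 0 and 2, of 4 neuronal control genes 1 and 4, and of 4 hepatocyte control genes 0 and 2. Over all protein-coding genes the untreated shares were 6.76% on the 4 chromosomes and 1.43% on the other autosomes, and the OSS_128167 shares 40.1% and 39.4%. These short lists do not settle which cells the cultures held. In cultures of mixed cells, fewer cells of a type and less Pol II per cell cannot be told apart.

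Few of the 758 peaks touched a promoter, and none of the promoters touched was of a gene on the osteoblast or matrix lists. Of the 758 peaks 5 (0.66%, exact 95% binomial interval 0.215 to 1.53) touched a RefSeq promoter window, which runs from 250 bases before to 50 after a gene start. An interval of their median length would touch such a window at 0.708% of positions on these chromosomes. In the OSS_128167 list the same chromosomes had 136 of 7363 peaks at promoter windows (1.85%, 1.55 to 2.18), against 0.77% of positions. Untreated peaks of the other autosomes were as scarce there, with 5 of 849 (0.589%, 0.191 to 1.37) against 0.633% of positions. Intervals of this kind cover counting error only, and neighbouring peaks are not independent. The promoters of Abcc2, an apical efflux transporter, of the vomeronasal receptor gene Vmn1r225 and of the predicted gene Gm40650 are shown because most of their bases lie in an untreated peak. The promoter of Col1a2, the type I collagen gene with most untreated peaks for its length, is shown for contrast. Sequences are from RefSeq on GRCm38.p6, 5′ to 3′ on the gene's strand, and capitals mark the bases inside the peak.
Abcc2 (chr19:43782058-43782357, plus strand): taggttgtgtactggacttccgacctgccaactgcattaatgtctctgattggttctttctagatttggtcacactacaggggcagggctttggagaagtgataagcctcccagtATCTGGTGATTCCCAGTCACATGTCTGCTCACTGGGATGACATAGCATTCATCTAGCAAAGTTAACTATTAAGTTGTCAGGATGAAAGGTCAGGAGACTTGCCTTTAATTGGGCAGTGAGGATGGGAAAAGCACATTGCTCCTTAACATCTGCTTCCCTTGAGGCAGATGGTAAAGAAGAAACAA
Vmn1r225 (chr17:20502049-20502348, plus strand): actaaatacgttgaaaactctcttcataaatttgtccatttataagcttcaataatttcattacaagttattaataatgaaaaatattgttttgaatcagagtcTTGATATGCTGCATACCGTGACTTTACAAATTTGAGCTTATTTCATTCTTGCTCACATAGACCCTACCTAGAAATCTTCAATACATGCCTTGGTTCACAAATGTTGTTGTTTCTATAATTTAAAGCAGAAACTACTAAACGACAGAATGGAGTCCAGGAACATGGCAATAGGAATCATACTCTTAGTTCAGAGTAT
Gm40650 (chr10:53488022-53488321, plus strand): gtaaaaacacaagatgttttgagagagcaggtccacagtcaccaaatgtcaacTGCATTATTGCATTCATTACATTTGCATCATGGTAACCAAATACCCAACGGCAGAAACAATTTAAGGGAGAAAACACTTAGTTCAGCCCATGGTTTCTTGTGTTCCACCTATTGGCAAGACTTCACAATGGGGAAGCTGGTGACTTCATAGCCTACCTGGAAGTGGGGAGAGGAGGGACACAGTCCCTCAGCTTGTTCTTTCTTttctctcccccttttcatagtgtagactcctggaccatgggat
Col1a2 (chr6:4505368-4505667, plus strand): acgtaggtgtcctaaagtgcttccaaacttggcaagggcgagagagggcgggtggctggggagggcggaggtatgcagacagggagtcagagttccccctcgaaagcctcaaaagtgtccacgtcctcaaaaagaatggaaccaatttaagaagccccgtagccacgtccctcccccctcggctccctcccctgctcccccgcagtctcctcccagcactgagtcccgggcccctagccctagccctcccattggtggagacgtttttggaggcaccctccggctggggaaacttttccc

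The capitals cover 185 of the 300 bases at Abcc2, 196 at Vmn1r225 and 204 at Gm40650. At Col1a2 no base is in capitals, because its first untreated peak began 500 bases beyond the window, inside the gene. The other touched promoters were those of the olfactory receptor genes Olfr772, by 3 bases, and Olfr455, by 20 bases. GC content was 45.0% at Abcc2, 31.3% at Vmn1r225, 44.7% at Gm40650 and 61.0% at Col1a2, where the median of all 32851 promoters was 52.7% (quartiles 45.7 and 61.7). Each of 3 short motifs was searched on both strands and on its own. TATAAA was found at Vmn1r225 alone among these 4 promoters, and in 13.6% of all promoters. CCAAT was found at Abcc2, Gm40650 and Col1a2, and in 37.4% of all. GGGCGG was found at Col1a2 alone, and in 35.7% of all.

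The 4 chromosomes had 1.79 untreated peaks per Mb together (exact 95% Poisson interval 1.66 to 1.92), and the other autosomes 0.429 (0.401 to 0.459). Chromosome 6 had 277 peaks, or 1.89 per Mb, and chromosome 10 had 265, or 2.08 per Mb. Chromosome 19 had 100 peaks (1.72 per Mb) and chromosome 17 had 116 (1.26 per Mb). The nearest chromosomes outside the group were 8, with 1.15 per Mb, and 5, with 1.04. On both of those more than 50% of the binned peaks fell in 1 bin of 10 Mb, 51.4% on chromosome 8 and 52.6% on chromosome 5. In the OSS_128167 list the 4 chromosomes had 17.36 peaks per Mb together (16.97 to 17.76) and the other autosomes 16.5 (16.4 to 16.7). By chromosome these were 16.2 to 19.3 on the 4 and 15.3 to 19.8 on the others, except chromosome 13 at 5.70.

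**Figure D1:**
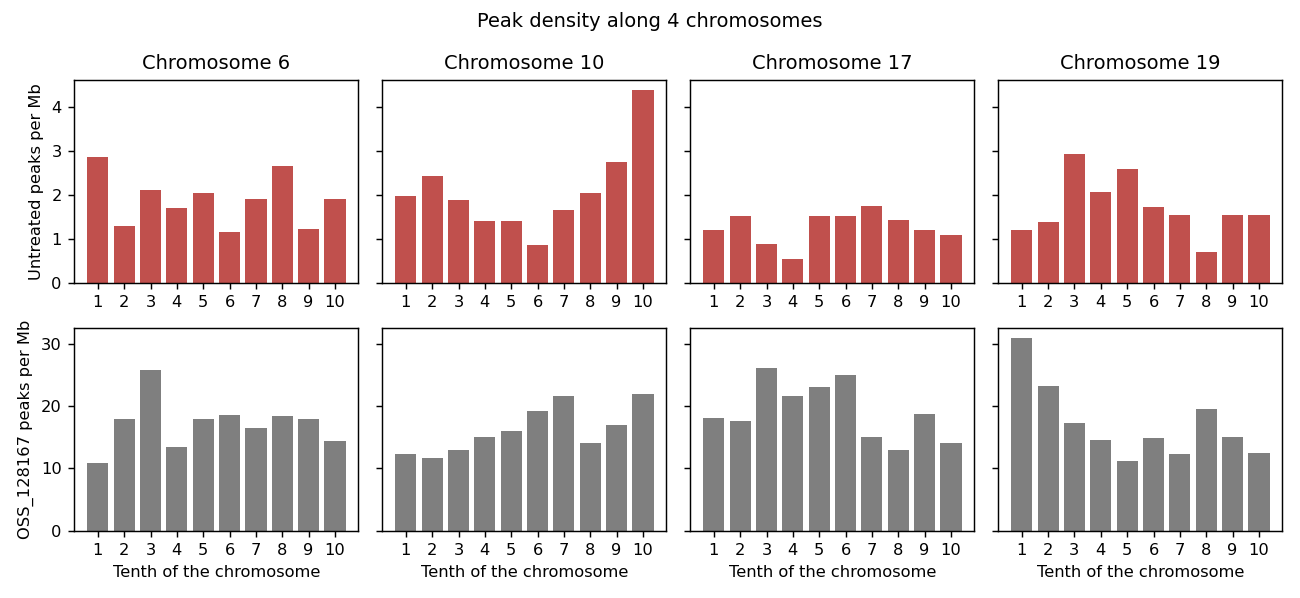
Peaks per Mb (y axis) in 10 equal parts of chromosomes 6, 10, 17 and 19 (x axis), for the untreated list above and the OSS_128167 list below, with separate y scales. Every part holds untreated peaks, with the highest density, 4.39 per Mb, in the last part of chromosome 10 and the lowest, 0.544, in the fourth part of chromosome 17.

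Untreated peaks were spread over the whole length of all 4 chromosomes. Each of their 42 full bins of 10 Mb held at least 5 untreated peaks, and 38 held at least 10. On the other autosomes 62 of 196 bins held none and 16 held at least 10. Chromosomes 3, 8, 11 and 15 had no empty bin either. The 4 chromosomes were chosen for density, and their mean bin held 17.1 peaks against 4.28. Fewer empty bins go with a higher density alone, so these counts are no separate evidence of an even spread. The median bin held 20.5 peaks on chromosome 6, 18 on chromosome 10, 14 on chromosome 17 and 15 on chromosome 19. Medians on the other autosomes ran from 0 to 5. The busiest bin held 10.6% of the binned peaks of chromosome 6, 18.1% of chromosome 10, 15.6% of chromosome 17 and 25.3% of chromosome 19, which has only 6 bins. On the other autosomes this share had a median of 50% and ran from 17.8% on chromosome 3 to 84.0% on chromosome 16. Chromosomes 2, 11 and 15, with 20.5, 21.8 and 18.75%, were also within the range of the 4.

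The spread was not uniform, and chromosome 10 was the least even of the 4. The variance of the bin counts divided by their mean, which is 1 for a Poisson count, was 1.57 on chromosome 6, 1.35 on chromosome 17 and 1.91 on chromosome 19. On chromosome 10 it was 5.17. The other autosomes ran from 1.10 on chromosome 15 to 68.5 on chromosome 4. The mean bin of chromosome 15 held 3.2 peaks, against 12.1 on chromosome 17 and 20 on chromosome 10. For the same relative unevenness the ratio is lower where bins hold fewer peaks, so its low value does not show an equal evenness. On chromosome 10 the bins from 110 to 120 Mb and from 120 to 130 Mb held 32 and 47 untreated peaks. Its bin from 70 to 80 Mb held 5. When chromosome 10 was cut into 3 equal parts, the densities were 2.05 per Mb (1.64 to 2.53), 1.32 (0.995 to 1.71) and 2.87 (2.38 to 3.43). The corresponding 3 values ran from 1.58 to 2.15 on chromosome 6, from 1.21 to 1.34 on chromosome 17 and from 1.34 to 1.96 on chromosome 19, and their counting intervals overlapped within each of these chromosomes. In the OSS_128167 list the ratio of variance to mean was larger on all 4 (7.88 to 20.2), but its bins hold about 10 times as many peaks, so the ratios of the lists are not on a like footing.

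**Figure D2:**
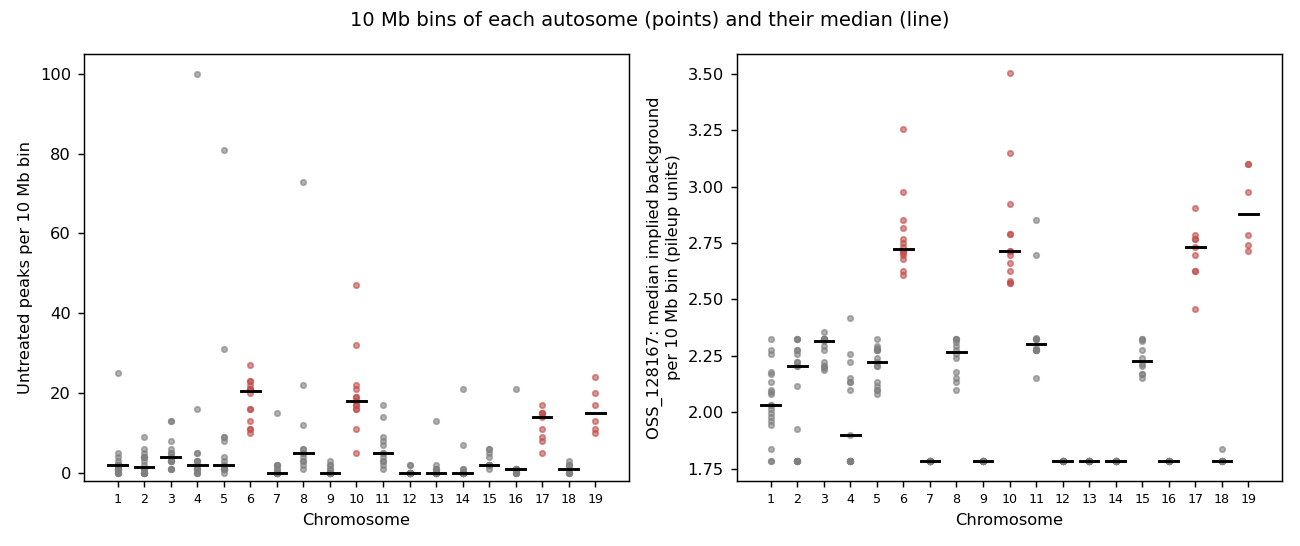
Each point is a full 10 Mb bin of an autosome, red for chromosomes 6, 10, 17 and 19, and the line is the chromosome's median; the left panel plots untreated peaks per bin and the right panel the median background implied by the OSS_128167 peaks of the bin, in pileup units. All 42 red bins hold at least 5 untreated peaks, and 41 of them lie above an implied background of 2.5, which 2 of 196 other bins exceed.

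The background implied at OSS_128167 peaks differed on these chromosomes too. Whether it comes from that Pol II library or from its input is not known, as the use of inputs is not given. Fold enrichment, pileup and p-value of the peaks were related as fold = (pileup + 1)/(background + 1), and Poisson p-values recomputed from this differed from the deposited ones by at most 0.00204 (log10) for OSS_128167 peaks and 0.00546 for untreated peaks. The median background so implied was 2.80 for OSS_128167 peaks on chromosome 6, 2.80 on chromosome 10, 2.70 on chromosome 17 and 2.91 on chromosome 19. On the other autosomes the medians ran from 1.78, which is the lowest value in the list, to 2.32. The elevation ran along the whole chromosomes, since 41 of their 42 bins had a median above 2.5, a limit set after the values were seen. The exception, from 50 to 60 Mb of chromosome 17, was at 2.46. The highest bin was the last of chromosome 10, at 3.50, which also held the most untreated peaks of the 42, at 47. Other bins did not pair in this way. The bin from 50 to 60 Mb of chromosome 17 held 15, against that chromosome's median of 14. On chromosome 19 the bins from 0 to 10 Mb and from 20 to 30 Mb, both at 3.10, held 10 and 24. Median OSS_128167 pileup was 10 on each of the 4 chromosomes and 7 to 9 on the others. An FDR no higher than 0.05 was held by 18.0 to 19.9% of OSS_128167 peaks on each of the 4 chromosomes, by 12.2 to 21.8% on the others and by 16.1% of the whole list. The part of this background in the untreated density was not tested. The copy number of these chromosomes in the cultured cells was not measured here, and its part in background, pileup and density was not tested.

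Untreated peaks on the 4 chromosomes were low and close to the floor of their list. Untreated pileup comes in steps of 0.5432, and their median was 11 steps (5.98), with quartiles of 5.43 and 6.52 and a lowest value of 8 steps (4.35). On the other autosomes the median was 13 steps (7.06) with an upper quartile of 10.9. Medians per chromosome were 5.43 on chromosomes 6 and 19 and 5.98 on chromosomes 10 and 17. Other autosomes had the same medians, 5.43 on chromosomes 9 and 15 and 5.98 on chromosomes 2, 3 and 11. The rest of them were higher, up to 12.22 on chromosome 5, so low pileup was not particular to the 4. Median fold was 3.26 in both groups of chromosomes, and median lengths were 242.5 and 256 bp. The implied background, with a median of 1.00 on the 4 chromosomes and 1.18 on the others, exceeded 1.5 at 41 of the 758 peaks (5.41%) and at 39.5% of peaks on the other autosomes. By chromosome that share was 3.77 to 10.3% on the 4 and 0 to 68% on the others, with a median of 20%. An FDR of at most 0.05 was reached by 3 of the 758 (0.396%), against 6.43% of the whole untreated list, and 703 had an FDR of 1.

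The 3 peaks that passed this FDR lay at Abcg2, at Gm4340 and beyond Cdkn1a. The peak at chr6:58608510-58608766 lay inside Abcg2, which encodes an efflux transporter, with a pileup of 10.9, a fold of 5.65 and an FDR of 0.00857. Abcg2 held 2 more untreated peaks, with folds of 3.84 and 3.70, and no OSS_128167 peak. The peak at chr10:104193180-104193438 lay 604 bp outside the predicted gene Gm4340, with a pileup of 9.78, a fold of 5.39 and an FDR of 0.0275. The peak at chr17:29102896-29103209 had the highest pileup of the 758, at 19.01, with a fold of 5.003 and an FDR of 7.63e-05. It lay 2174 bp outside Cdkn1a, which encodes the cell cycle inhibitor p21, in a run of 3 untreated peaks ending at 29107558. None of these 3 peaks overlapped an OSS_128167 peak, although Cdkn1a itself had 4 OSS_128167 peaks within 1000 bp, the highest with a fold of 7.80.

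The other peaks of highest fold lay mostly away from protein-coding genes. On chromosome 6 they were at 67673341 to 67673565 in the immunoglobulin kappa locus Igk (fold 4.91) and at 3235431 to 3235705, 136552 bp from Samd9l (4.64). That second value was shared by 2 further peaks of chromosome 6 with the same pileup, so the choice between them follows position. On chromosome 10 they were 470337 bp from Reep3 (4.91) and 12307 bp from Nt5dc1 (4.64). On chromosome 17 they were 8599 bp from Mep1a (4.80) and within Gm3417 (4.44). Chromosome 19 had lower folds, 4.30 at 209513 bp from Gm38656, 4.18 at 62308 bp from Rab11fip2 and 4.09 at 23776 bp from Slc22a27. Of all 758 peaks, 44.2% had no annotated gene within 1000 bp and 7.65% only a gene not classed as protein-coding, as Igk is here. A place away from protein-coding genes was therefore common in the whole set.

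**Figure D3:**
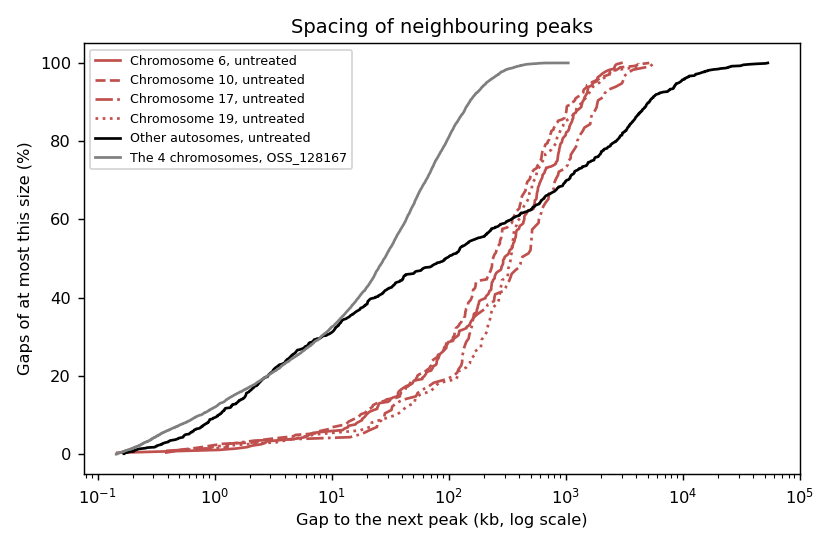
Cumulative share of gaps between neighbouring peaks (y axis, percent) by gap size in kb (x axis, log scale), for untreated peaks on chromosomes 6, 10, 17 and 19, untreated peaks on the other autosomes, and OSS_128167 peaks on the 4 chromosomes. The 4 red curves rise together, with medians of 240 to 426 kb, while the other autosomes have many gaps under 10 kb and a long tail.

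Neighbouring untreated peaks on these chromosomes seldom stood in groups, as on some other autosomes. The median gap was 299 kb on chromosome 6, 240 kb on chromosome 10, 426 kb on chromosome 17 and 338 kb on chromosome 19. On the other autosomes it ran from 8.57 to 7108 kb, with a median of 611 kb. Of all 754 gaps 43 (5.70%) were under 10 kb, against 31.1% of 834 gaps on the other autosomes together. By chromosome that share was 3.48 to 6.82% on the 4 and 0 to 50.7% on the others. It was 4.44% of 45 gaps on chromosome 2, 4.55% of 22 on 7, 0% of 3 on 12 and 2.78% of 36 on 15. These rest on few gaps, and on chromosome 7 1 bin of 10 Mb held 65.2% of the binned peaks. In the OSS_128167 list 32.5% of gaps on the 4 chromosomes were under 10 kb. Its mean gap there was 57.2 kb against 556 kb, so that share is not on a like footing. The median gap divided by the mean gap was 0.505 to 0.589 on the 4 chromosomes and on the others ran from 0.00246 to 1.23, with a median of 0.183. The value of 1.23 was that of chromosome 12, from 3 gaps. Joining peaks under 10 kb apart gave 715 places, of which 36 held 2 or more peaks. The places with more than 2 were Col1a2 (5 peaks), chr10:57435920-57445255 with no gene within 1000 bp (4), the olfactory receptor gene Olfr775 (3) and the run beyond Cdkn1a (3).

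Of the 3 longest stretches without an untreated peak on each chromosome, 10 of 12 held more protein-coding genes per Mb than their chromosome, which has 7.64 on chromosome 6, 7.85 on 10, 11.4 on 17 and 12.1 on 19. The others were chr10:48376470-52287806, with 2.56 genes per Mb, and chr19:54811387-57226686, with 7.45. Chromosome 17 had none from 23360017 to 29048337, which is 5.69 Mb with 34.1 protein-coding genes and 30.2 OSS_128167 peaks per Mb. It had none from 35405959 to 40663496 either, with 24.9 genes per Mb. Chromosome 10 had none from 73896683 to 79063277 (5.17 Mb, 20.5 genes per Mb), a stretch with Col6a1, Col6a2 and Col18a1, which encode collagen chains and each had OSS_128167 peaks. Chromosome 19 had a gap of 4.205 Mb with 17.4 genes per Mb and one of 4.18 Mb with 32.8. The gaps of chromosome 6 were shorter, at 2.99, 2.70 and 2.64 Mb, with 9.04, 18.1 and 15.9 genes per Mb. On the other autosomes the longest gap per chromosome ran from 8.33 to 53.2 Mb.

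**Figure D4:**
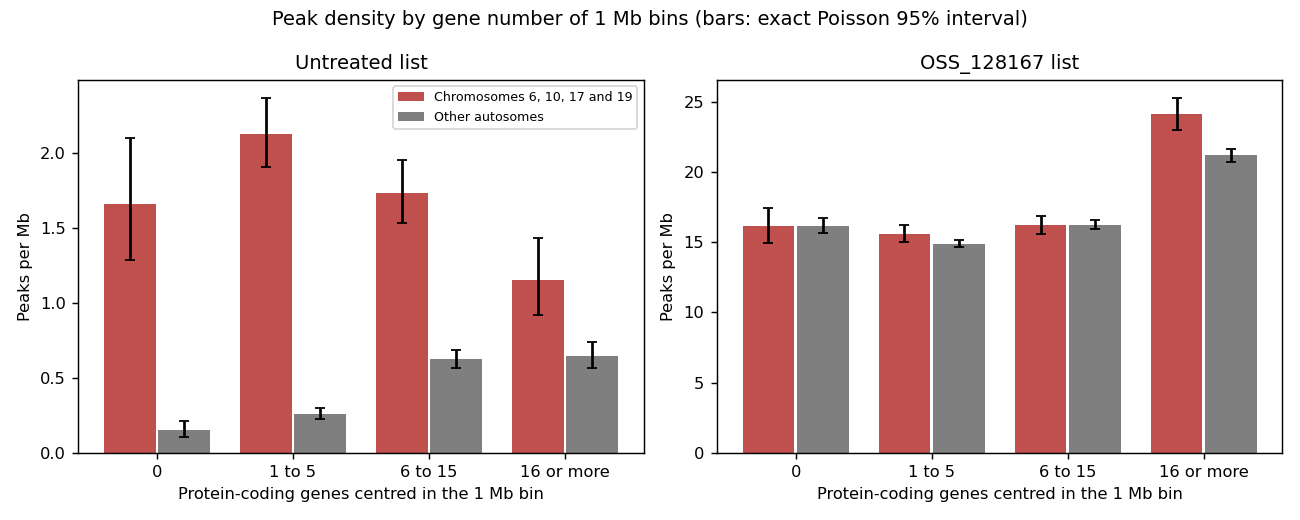
Peaks per Mb (y axis) in 1 Mb bins grouped by the number of protein-coding genes centred in them (x axis), for the 4 chromosomes and the other autosomes, untreated list left and OSS_128167 list right; error bars are exact Poisson 95% intervals. Untreated density on the 4 chromosomes is lowest in bins of 16 or more genes, at 1.15 per Mb, where OSS_128167 density is highest, at 24.2.

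Over the 4 chromosomes together, untreated peaks were fewest where genes were most crowded. On the 4 chromosomes, 1 Mb bins with 16 or more protein-coding genes had 1.15 untreated peaks per Mb (0.919 to 1.43), bins with 6 to 15 had 1.74 (1.53 to 1.96) and bins with 1 to 5 had 2.13 (1.91 to 2.37). Bins without a gene had 1.66 (1.29 to 2.10), so the order did not run through. On chromosomes 6 and 10 another class was the lowest, bins without a gene (1.13) and bins with 6 to 15 genes (1.69). Density was lower in bins of 16 or more genes than in bins of 1 to 5 on each chromosome, with 1.33 and 1.96 on chromosome 6, 1.83 and 2.25 on chromosome 10, 0.81 and 1.70 on chromosome 17, and 0.882 and 2.89 on chromosome 19. The intervals of the 2 classes overlapped on chromosomes 6, 10 and 17. In the OSS_128167 list the most crowded bins of the 4 chromosomes had 24.2 peaks per Mb (23.0 to 25.3) and the other classes 15.6 to 16.2. Untreated peaks on the other autosomes went the other way, from 0.154 in bins without a gene to 0.648 in the most crowded bins. Across the 42 bins of 10 Mb, Pearson's r between peak number and gene number was -0.24 for untreated and 0.56 for OSS_128167 peaks (Spearman's rho -0.37 and 0.65). On chromosome 10 alone the untreated r was 0.20 over 13 bins. These bins share 2 libraries and 4 chromosomes, and sequence composition was not held fixed.

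**Figure D5:**
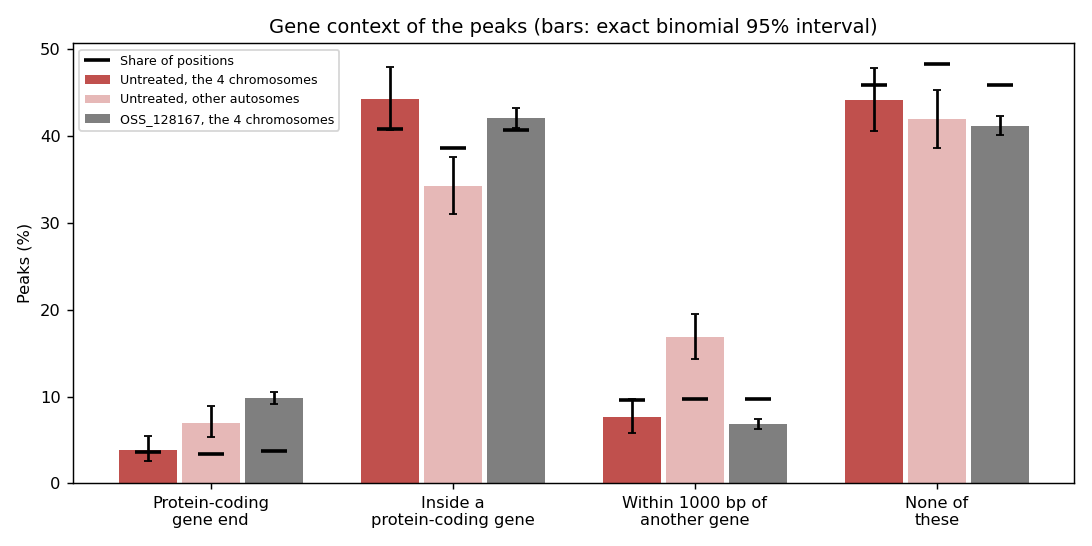
Share of peaks (y axis, percent) in 4 classes of gene context for untreated peaks on the 4 chromosomes, untreated peaks on the other autosomes and OSS_128167 peaks on the 4 chromosomes; error bars are exact 95% binomial intervals and black marks the share of positions of each class. At gene ends the red bar, 3.83%, sits at its mark of 3.66%, while the OSS_128167 bar, 9.86%, lies above its mark of 3.73%.

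The share of these peaks at gene ends was within counting error of the share of positions there. A peak counted as at an end when no more than 1000 bp from the first or last base of a protein-coding gene, as the table of genes gives no strand or exons. Of the 758 peaks 29 (3.83%, 2.58 to 5.45) lay at such an end, against 3.66% of positions and 5.48% of all autosomal untreated peaks. On the other autosomes 59 of 849 did (6.95%, 5.33 to 8.87). In the OSS_128167 list 726 of 7363 peaks of the 4 chromosomes did (9.86%, 9.19 to 10.6). Inside protein-coding genes lay 336 of the 758 (44.3%, 40.8 to 47.9), against 40.8% of positions. The share inside genes was 51.6% (45.6 to 57.6) on chromosome 6, against 40.5% of positions, and 35.1% (29.4 to 41.2) on chromosome 10, against 40.0%. Near another annotated gene only were 58 (7.65%), and 335 (44.2%) met none of these. Of the 758, 178 (23.5%) lay more than 100 kb from any protein-coding gene, the farthest 1.59 Mb from Grik2.

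Protein-coding genes with 3 or more untreated peaks were long, with Col1a2 as the main exception. On the 4 chromosomes 262 of 3874 protein-coding genes (6.76%) had an untreated peak within 1000 bp, and 238 of 16682 (1.43%) on the other autosomes. Genes with an untreated peak had a median length of 109 kb, against 15.9 kb for all genes of the 4 chromosomes, as a longer gene gives more room. Of the 24 protein-coding genes with 3 or more untreated peaks 22 were over 100 kb long, and the others were Ptn (95.3 kb) and Col1a2 (35.9 kb). The 68 with 2 or more also included short genes, such as Nfe2l3 (26.1 kb) and Olfr772 (1.00 kb). The long non-coding RNA gene Gm33843 had 3 in 74.3 kb. Cntnap2, which encodes a neuronal adhesion protein, had 6 peaks in 2241 kb, or 2.68 per Mb of gene. Tafa2 on chromosome 10 had 5 in 477 kb, Supt3 on chromosome 17 had 4 in 342 kb and Prkg1 on chromosome 19 had 4 in 1201 kb. Col1a2 had 6 peaks in its 35.9 kb, which is 167 per Mb of gene.

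Col1a2 encodes a chain of type I collagen, which fills most of the organic bone matrix. Its 6 untreated peaks ran from 4506168 to 4537477 on chromosome 6, all within the gene. Their pileups in order of position were 8.15, 7.06, 8.15, 11.4, 8.69 and 8.15, all above the median of the 758. Their folds were 3.77, 2.69, 3.62, 2.07, 3.89 and 3.53, and each had an FDR of 1. The background implied at the fourth peak was 5.001 and at the others 1.43 to 1.999, above the median of 1.00. The first overlapped an OSS_128167 peak of 3191 bp with a fold of 7.08, and the other 5 lay in a single OSS_128167 peak of 29800 bp with a fold of 9.03.

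Counts for the gene lists stand beside shares of 6.76% with an untreated and 40.1% with an OSS_128167 peak over all protein-coding genes of these chromosomes. Of 12 matrix genes here 2 had one, Col1a2 and Dcn, and 10 had an OSS_128167 peak. Dcn, which encodes the proteoglycan decorin, had 1 untreated peak with a pileup of 5.98 and a fold of 3.49, and no OSS_128167 peak. Of 5 osteoblast genes 1 had an untreated and 2 an OSS_128167 peak. Runx2, the transcription factor required for bone formation, had 2 untreated peaks, with pileups of 5.98 and 7.06 and folds of 3.42 and 3.95. The second of these lies where Runx2 and Supt3 overlap, and the peak cannot be assigned to either. Of 8 immediate early and growth genes Hmga2, which encodes a chromatin protein, had 2 untreated peaks (folds 4.11 and 3.91), and 7 had an OSS_128167 peak. Of 6 cytoskeletal and housekeeping genes, among them Gapdh, Acta2 and Cald1, 0 had an untreated peak and 5 an OSS_128167 peak. The 3 efferocytosis genes Anxa1, Lrp1 and C3 and the sirtuin genes Sirt1 and Sirt6 had no untreated peak, and Anxa1, Lrp1 and Sirt1 had OSS_128167 peaks.

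Of 3 long non-coding RNA genes here, all on chromosome 19, 2 had an untreated peak and 3 an OSS_128167 peak. The share over all long non-coding RNA genes is not given here, so these counts stand without a background. Neat1, the RNA scaffold of nuclear paraspeckles, had 2 untreated peaks of 260 and 984 bp, with pileups of 7.06 and 10.9 and folds of 2.41 and 2.97. The longer of them is the longest of the 758. Both lay within an OSS_128167 peak of 14349 bp with a fold of 8.39. Snhg1, a host gene of small nucleolar RNAs, had 1 untreated peak beyond its boundary (pileup 7.61, fold 3.10) within an OSS_128167 peak of fold 8.30. Malat1, which lies near Neat1, had no untreated peak and 2 OSS_128167 peaks.

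Some genes best known from other cell types also held untreated peaks. Pparg, the adipocyte transcription factor, had 3, with pileups of 7.06, 5.43 and 5.43, and no OSS_128167 peak. Cidec, the other adipocyte marker on these chromosomes, had no untreated peak, and neither did the macrophage markers Adgre1 and Lyz2. Syt1, a calcium sensor of synaptic vesicles, had 1, at a pileup of 4.89. Pparg spans 129.5 kb and Syt1 513 kb, and a longer gene gives more room. Of 209 olfactory receptor genes on the 4 chromosomes 5 had an untreated peak (Olfr455, Olfr768, Olfr772, Olfr775 and Olfr776), and of 113 vomeronasal receptor genes 5 did. On the other autosomes 0 of 894 olfactory and 3 of 236 vomeronasal receptor genes did. These families were picked after their values were seen. Their shares on the 4 chromosomes are below the 6.76% of all protein-coding genes here, but gene length was not held fixed. Olfr772 spans 1.00 kb and Vmn1r48 0.909 kb, against a median of 15.9 kb for all, so the shares are not on a like footing. The 4 olfactory receptor genes on chromosome 10 lie in the 1 Mb bin from 129 to 130 Mb, which with 12 untreated peaks was the busiest of the 4 chromosomes.

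Overlap with the OSS_128167 list was lower on these chromosomes together than on the other autosomes together. Of the 758 peaks 29 (3.83%, 2.58 to 5.45) overlapped an OSS_128167 peak, against 69 of 849 (8.13%, 6.38 to 10.2) on the other autosomes and 6.1% of all autosomal untreated peaks. An interval of their median length would touch an OSS_128167 peak at 1.06% of positions on the 4 chromosomes and at 0.985% on the others. The shares were 5.78% (3.34 to 9.21) on chromosome 6 and 1.89% (0.615 to 4.35) on chromosome 10. They were 2.59% (0.537 to 7.37) on chromosome 17 and 5% (1.64 to 11.3) on chromosome 19. The intervals of chromosomes 6 and 19 include the 8.13% of the other autosomes, whose single shares are not given here. Without the peaks at Col1a2 the share on the 4 chromosomes was 3.06%. As a share of the OSS_128167 peaks on these chromosomes, 23 of 7363 (0.312%) overlapped an untreated peak.

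The overlapping peaks were higher than the rest, with a median pileup of 7.06 against 5.43 for the 729 others. Of the 29 overlapping peaks 5 lay at a protein-coding gene end. They were the first peak of Col1a2, 2 peaks at Nfe2l3, which encodes a transcription factor of the NRF family, 1 between the ubiquitin-conjugating enzyme gene Ube2n and Nudt4, and 1 at Zfand5. At Nfe2l3 the untreated peaks had pileups of 5.43 and 7.06 and folds of 3.25 and 4.03, inside an OSS_128167 peak of 5121 bp with a fold of 8.88. At Ube2n and Nudt4 the pileup was 5.43 and the fold 2.84, in an OSS_128167 peak of fold 3.90. At Zfand5 they were 7.06 and 4.09, in an OSS_128167 peak of fold 3.27. Inside Btg1, which encodes an antiproliferative protein, an untreated peak with a pileup of 8.15 and a fold of 2.91 lay in an OSS_128167 peak of 8001 bp. Ptn, which encodes the growth factor pleiotrophin, had 3 untreated peaks with folds of 3.26, 4.09 and 2.98, of which 2 overlapped OSS_128167 peaks, among 50 OSS_128167 peaks in the gene.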

How the data were processed

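The submitters' processing notes name fastp, BWA and the build mm10. How peaks were called, with which limits, and whether inputs served as controls is not given in the sources used here. The authors deposited 1 peak list per Pol II library. Per the file headers, each row gives a position counted from 1, a length, the fold enrichment (a ratio), the FDR, the p-value, and the pileup, a signal height of unstated scaling. All 4 measures are the authors' own and were compared as values of a list.

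Peaks of chromosomes 6, 10, 17 and 19 were taken from the untreated list. Gene positions were those of RefSeq on GRCm38.p6 (mm10), leaving out 328 of 47038 autosomal genes that start below 3 Mb, where neither list has an autosomal peak. Spans run from the first to the last annotated gene, and only full bins were counted. A peak fell in the bin of its centre. Overlap means at least 1 bp. Shares of positions were computed exactly for an interval of the group's median length. Background was implied from fold and pileup. Intervals are exact (95%). On simulated intervals, 50 of 50 planted overlaps were recovered, with 0 differences from a direct search over 400. Tables were handled with pandas 2.3.3 and numpy 2.4.6 in Python 3.11.15, intervals came from scipy 1.17.1 and plots from matplotlib 3.10.9.

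Named were, per chromosome, the 3 peaks of highest fold, peaks with an FDR of at most 0.05, up to 4 overlapping peaks at gene ends, the gene with most peaks, and members of fixed gene lists. Btg1, Ptn, Abcc2, receptor genes and other genes with 3 or more peaks were named after their values were seen. The chromosomes and lists were chosen with earlier results of these data known. With 1 library per condition no test was run, and leaving out a replicate was not possible. Alternatives changed the peak limit, bins, span, windows and overlap.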

Additional observations from a re-analysis of the deposited data

How the results depend on the processing

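No paired analysis was possible because each condition has 1 library. With a p-value of at most 0.001 (487 peaks) density on the 4 chromosomes was 1.15 per Mb, the ratio of variance to mean over their 42 bins 2.40 against 3.21, and the median gap 458 kb against 291 kb. With an FDR of at most 0.05, 3 peaks remained, or 0.00707 per Mb, which describes no density. That ratio was 2.58 in 5 Mb bins, 2.81 in 20 Mb bins, 2.63 with peaks joined under 10 kb, and 3.23 without the first bin of each chromosome, a setting added after seeing the data, as was leaving out Col1a2. It pools 4 chromosomes of unlike density and changes with the peaks per bin. Values for each chromosome are not given at these settings, so the order of the chromosomes was not rechecked. The share at gene ends was 13.9% with a window of 5000 bp and 1.85% with 500 bp, as a wider window holds more positions. The share with an OSS_128167 peak within 1000 bp was 6.73%. Joined peaks, the other span, the other gap measure, the pileup settings, the peak centre, and stricter overlap or FDR moved their values by less than the main interval or quartile range. Unknown depth and single libraries limit every comparison.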

Other observations

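Chromosome 11, which is outside the 4, had a stretch with values like theirs. Its bins from 80 to 90 Mb and from 90 to 100 Mb held 17 and 14 untreated peaks, and its other 10 Mb bins 1 to 9. The median background implied by OSS_128167 peaks was 2.85 and 2.70 in those bins, the only bins of the other autosomes above 2.5, and 2.15 to 2.33 in the rest of the chromosome. Chromosome 4 held 100 untreated peaks from 140 to 150 Mb, where that background was 1.90, and 16 from 60 to 70 Mb, where it was 2.10. On chromosomes 7, 9, 12, 13, 14 and 16 each bin had a median at the lowest value of the list, 1.78, and the median bin held at most 1 untreated peak. Single bins at that background still held many, with 15 on chromosome 7 (20 to 30 Mb), 13 on chromosome 13 (60 to 70 Mb), 21 on chromosome 14 (40 to 50 Mb) and 21 on chromosome 16 (0 to 10 Mb). These places were picked after their values were seen, and no explanation was tested.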
